A study of Mus musculus with 34 samples.

Results

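The level of 10 genes of brain blood vessels was followed in RNA from the cortex, hippocampus and thalamus of mice whose brain myeloid cells had or had not been replaced from the bone marrow. The 10 genes are *Cldn5*, *Slc2a1*, *Mfsd2a*, *Abcb1a*, *Pecam1*, *Tek*, *Vwf*, *Flt1*, *Ocln* and *Vcam1*, taken by symbol, and each had 1 row among the 16389 genes measured. All 10 reached an FPKM (fragments per kilobase of gene, scaled to library size) of 1 in every one of the 34 libraries, so none was lost to the filter on low values. WT CON mice were wild-type, received no irradiation, no transplant and no inhibitor, and are labelled Vehicle. GFP-BM CON mice, labelled Irradiation, received 1000 cGy over the whole body at 4 months of age and a transplant of bone marrow that expresses EGFP from the ubiquitous CAG promoter. GFP-BM REPOP mice, labelled Irradiation + PLX3397, received the same and, 3.5 months later, PLX3397 at 600 ppm in the diet for 14 days, an inhibitor of the receptor CSF1R on which microglia depend, followed by 6 months of recovery. All were male C57BL/6 mice, perfused with PBS before dissection, and the thalamus sample included the striatum. In that order of groups, there were 3, 4 and 4 libraries of the cortex, 4, 4 and 4 of the hippocampus and 4, 3 and 4 of the thalamus. Irradiation and transplant were always given together, and no group received PLX3397 without them, so their parts cannot be told apart.

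Endothelial cells of brain vessels form the blood-brain barrier. They are sealed to each other by tight junctions, take up nutrients through dedicated transporters, pump many drugs back into the blood and keep transport by vesicles low, and pericytes, astrocytes and Wnt signalling maintain this state. When activated by inflammation or injury, endothelial cells display adhesion molecules that capture leukocytes, a route by which blood cells enter tissue. *Cldn5* and *Ocln* encode the tight junction proteins claudin-5 and occludin. *Slc2a1* encodes the glucose transporter of the barrier, *Mfsd2a* a transporter of lipids that carry docosahexaenoic acid which also restrains vesicle transport, and *Abcb1a* an efflux pump, P-glycoprotein. *Tek* encodes the receptor of the angiopoietins and *Flt1* a receptor of VEGF. *Pecam1* encodes an adhesion molecule of endothelial junctions, *Vwf* the von Willebrand factor that binds platelets, and *Vcam1* an adhesion molecule for leukocytes. Not all are confined to endothelium: occludin is also a protein of epithelia, *Vcam1* is also made by astrocytes and choroid plexus epithelium, and *Slc2a1* also by glia and choroid plexus epithelium. In RNA from whole tissue, fewer endothelial cells and less RNA per cell cannot be told apart.

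On GRCm38.p6, the build behind the deposited table, *Cldn5* lies at chr16:18776847-18778262, *Slc2a1* at chr4:119108745-119137330, *Mfsd2a* at chr4:122946850-122961194 and *Tek* at chr4:94739086-94874976. *Abcb1a* lies at chr5:8567091-8748575, *Flt1* at chr5:147561604-147726438, *Vwf* at chr6:125552948-125686679 and *Pecam1* at chr11:106654213-106715281. *Ocln* lies at chr13:100496504-100552718 and *Vcam1* at chr3:116110020-116129688. The levels are of whole genes, exons summed. The GC content of the longest transcript, which returns below, was 60.5% for *Cldn5*, 56.5% for *Vwf*, 54.2% for *Mfsd2a* and 54.0% for *Slc2a1*. It was 50.5% for *Flt1*, 50.2% for *Pecam1*, 47.1% for *Tek* and 45.2% for *Abcb1a*. *Ocln* and *Vcam1* had the lowest, 42.0% and 40.1%.

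RefSeq's promoter windows held 7 of the 10 genes, and not *Pecam1*, *Vwf* or *Vcam1*. Stretches of *Cldn5*, *Slc2a1* and *Mfsd2a* are shown because each is in the table and they encode a junction protein and transporters of glucose and lipid. The deviations of *Cldn5* from its group means had a correlation of 0.56 with those of *Slc2a1* and 0.60 with those of *Mfsd2a* over the 34 libraries. With *Pecam1* and *Vwf*, which are not in the table, it had 0.66 and 0.59. Libraries share base composition in these values, as given below, and shared regulation was not tested. Each stretch of 150 bases runs 5′ to 3′ on the strand of the gene, from 250 to 101 bases before the start that RefSeq's promoter table uses, which for *Mfsd2a* lies inside the outer end of the gene given above. Capitals mark GGAA or TTCC, the core letters of an ETS factor motif on either strand.
Cldn5: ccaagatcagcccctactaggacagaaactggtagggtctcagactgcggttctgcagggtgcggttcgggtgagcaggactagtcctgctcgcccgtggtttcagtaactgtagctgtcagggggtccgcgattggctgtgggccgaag
Slc2a1: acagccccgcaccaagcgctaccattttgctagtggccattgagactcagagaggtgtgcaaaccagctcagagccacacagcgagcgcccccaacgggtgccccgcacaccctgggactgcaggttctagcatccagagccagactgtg
Mfsd2a: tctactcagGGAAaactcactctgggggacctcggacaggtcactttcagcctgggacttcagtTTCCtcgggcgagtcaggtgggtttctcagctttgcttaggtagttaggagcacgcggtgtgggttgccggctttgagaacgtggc
The stretch of *Cldn5* is chr16:18776597-18776746 on the plus strand, that of *Slc2a1* chr4:119108495-119108644 on the plus strand and that of *Mfsd2a* chr4:122961289-122961438 on the minus strand. *Mfsd2a* held 2 of the core motifs, and *Cldn5* and *Slc2a1* held 0 in these windows. Of the 32851 windows of this length in the table, 81.7% held at least 1 and the median was 2. The GC content was lowest in *Mfsd2a* (56.7%) and highest in *Slc2a1* (61.3%), against a median of 50.7%.

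Reads recovered from the deposited values came to between 17085018 and 26010509 per library, and each member rested on 102 (*Ocln*) to 2863 (*Slc2a1*) reads. In the cortex, *Ms4a7*, a gene of bone marrow-derived macrophages, followed the labels, with an FPKM of 4.17 ± 0.55 (SD, n = 4) in GFP-BM REPOP against 0.181 ± 0.083 (n = 3) in WT CON, and *Tmem119*, a microglial gene, was 5.40 ± 1.22 against 9.74 ± 1.19. In the thalamus *Ms4a7* was 5.61 ± 1.22 against 0.296 ± 0.175 in these groups, while *Tmem119* did not pass an adjusted p of 0.05 by limma. In the hippocampus, where at most 0.0272% of all genes passed a treatment comparison, neither gene passed. Several hippocampal libraries stood apart. A list of 10 genes of the hippocampus summed to an FPKM of 110.5 to 254.0 in 9 of the 12 hippocampal libraries, but to 39.6, 33.1 and 49.5 in the libraries labelled WT CON hippocampus replicate 2, GFP-BM REPOP hippocampus replicate 1 and GFP-BM REPOP hippocampus replicate 4, which is the range of the cortex (31.4 to 58.3). Those 3 were also high in genes of the thalamus (266.5 for WT CON replicate 2), the cortex (283.4 for GFP-BM REPOP replicate 1) or the striatum (1973 for GFP-BM REPOP replicate 4), so they went against their label. The striatal genes also summed to 511.9, 820.3 and 731.8 in WT CON hippocampus replicates 1, 2 and 3, and to 82.2 in replicate 4. Their sum was 139.2 to 173.9 in GFP-BM CON hippocampus and 123.3 to 227.5 in GFP-BM REPOP hippocampus replicates 1 to 3. The part of striatal tissue in differences from WT CON hippocampus was not tested. Genes of the choroid plexus, 12 in all, summed to 7147, 5512 and 7247 in WT CON replicate 1 and GFP-BM CON replicates 3 and 4 of the hippocampus and to at most 1357 in the 31 other libraries. Libraries also differed in a GC measure, the median log2 level of the 1387 genes richest in GC minus that of the 1387 poorest. It was 0.76 to 1.25 in WT CON, 0.43 to 0.58 in GFP-BM CON and 0.41 to 0.99 in GFP-BM REPOP cortex, 1.75 to 3.39 in WT CON hippocampus, 0.72 to 2.08 in GFP-BM CON hippocampus and 1.47 to 2.61 in GFP-BM REPOP hippocampus. In the thalamus it was 1.09 to 3.65 in WT CON and 0.46 to 0.94 in the transplanted groups. WT CON libraries thus lay above all those of the transplanted groups in the thalamus and above all those of GFP-BM CON in the cortex. Beside part of the members' results below stand values without the libraries that went against their label, or without those rich in choroid plexus genes. Values corrected for GC content and length stand there too. All values of other genes are as deposited and with all libraries.

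*Slc2a1* and *Cldn5* were the members with the highest levels in all 9 groups. In WT CON cortex the mean FPKM was 26.7 ± 1.13 (SD, n = 3) for *Slc2a1* and 23.4 ± 1.50 for *Cldn5*, and these neighbours did not overlap (25.6 to 27.9 and 21.7 to 24.4). Their order was turned in GFP-BM REPOP cortex and hippocampus, where *Cldn5* had the higher mean and the ranges overlapped. *Flt1* followed at 9.15 ± 0.35 and *Abcb1a* at 7.82 ± 0.57. *Vcam1* (6.12 ± 0.37), *Pecam1* (5.96 ± 0.53) and *Mfsd2a* (5.85 ± 0.43) lay within 1 SD of each other. *Tek* (2.73 ± 0.46), *Vwf* (2.52 ± 0.11) and *Ocln* (2.38 ± 0.09) were the lowest and also lay within 1 SD of *Tek*. These levels are per length of gene, on the FPKM scale.

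**Figure D1:**
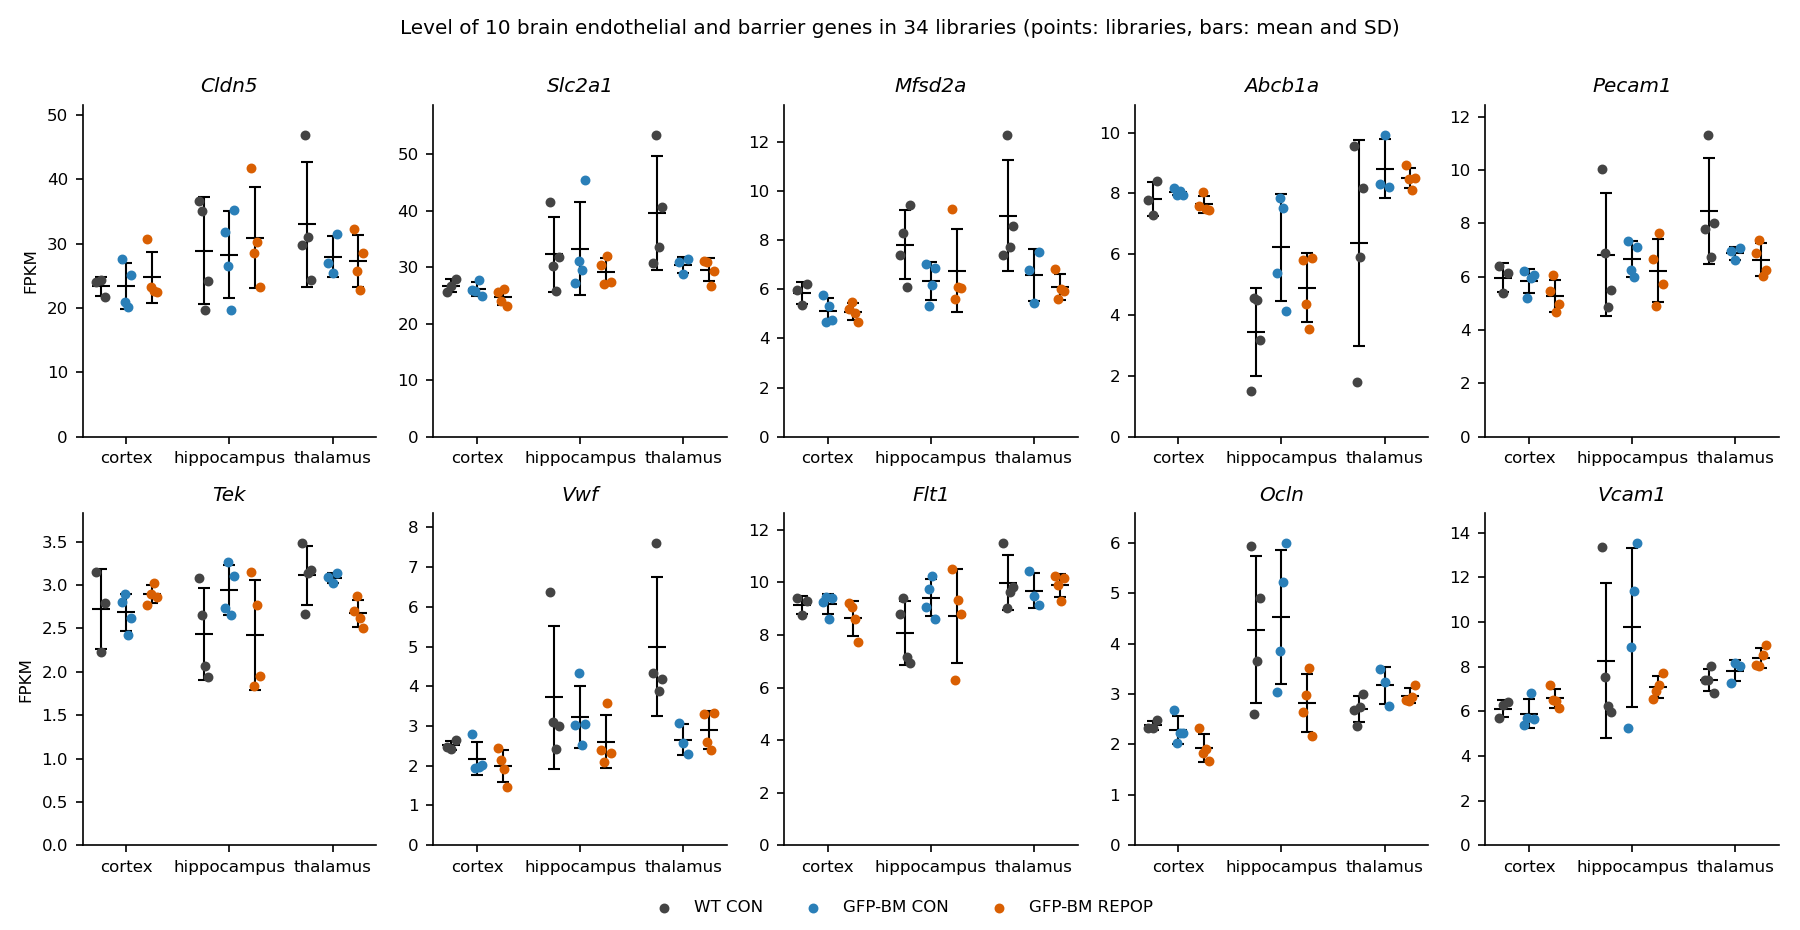
FPKM of each member (vertical axis, starting at 0) in 34 libraries, by region and treatment; points are libraries, black bars the mean and SD of each group. The cortex groups lie close together, Abcb1a is low and scattered in WT CON hippocampus, and 1 WT CON thalamus library is the highest for Slc2a1, Mfsd2a, Pecam1 and Vwf.

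The first question was whether irradiation with transplant, or that followed by microglial depletion and replacement, left the barrier genes at another level. Differences are on the scale of log2(FPKM + 0.1), tested with limma in a fit per region and adjusted by the Benjamini-Hochberg method over 14710 genes. Of the 10 members, 0 passed an adjusted p of 0.05 in each of the 9 comparisons by limma, and 0 did with voom on the recovered reads. In the cortex, 0.32% of all genes passed in GFP-BM CON against WT CON, 0.734% in GFP-BM REPOP against WT CON and 0.0476% between the transplanted groups, GFP-BM REPOP against GFP-BM CON. These shares were 0%, 0.0136% and 0.0272% for the hippocampus and 0%, 0.836% and 0% for the thalamus. A count of 0 among 10 is near these shares. At an unadjusted p under 0.05, the members numbered 0, 1 and 0 in the cortex, where 16%, 14.3% and 4.27% of all genes passed. They numbered 1, 0 and 1 in the hippocampus (23.9%, 9.67% and 11.7% of all genes) and 2, 3 and 0 in the thalamus (20.7%, 25% and 0.945%). The median difference of the members lay between -0.10 and -0.03 in the cortex, -0.23 and 0.07 in the hippocampus, and -0.22 and -0.05 in the thalamus, where that of all genes lay between -0.06 and 0.02 in every comparison.

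Replicates were closest together in the cortex for most members. *Cldn5*, the main seal of the barrier, had an FPKM of 24.0, 24.4 and 21.7 in WT CON, 27.6, 20.9, 20.2 and 25.1 in GFP-BM CON, and 30.7, 23.3, 22.6 and 22.4 in GFP-BM REPOP cortex. The 3 groups overlapped, and the difference was -0.01 (95% confidence interval -0.28 to 0.27, adjusted p = 0.991) in GFP-BM CON and 0.07 (-0.20 to 0.35, adjusted p = 0.849) in GFP-BM REPOP against WT CON. *Slc2a1* was 25.6, 26.6 and 27.9 in WT CON, 25.9, 25.8, 27.8 and 24.9 in GFP-BM CON, and 25.6, 24.0, 26.1 and 23.2 in GFP-BM REPOP. Its intervals were -0.15 to 0.09 and -0.23 to 0.01, the narrowest of the members in both comparisons. *Abcb1a* had intervals of -0.09 to 0.18 and -0.16 to 0.10, and *Flt1* of -0.15 to 0.15 and -0.24 to 0.07.

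In the values as deposited, *Ocln* was the only member with an unadjusted p under 0.05 by limma in the cortex. It was 2.33, 2.33 and 2.48 in WT CON, 2.68, 2.04, 2.22 and 2.22 in GFP-BM CON and 2.32, 1.84, 1.90 and 1.66 in GFP-BM REPOP cortex. The highest GFP-BM REPOP value, 2.32, lay just under the lowest of WT CON, so these groups did not overlap, and 9.48% of all genes had groups that did not overlap in that comparison. The difference was -0.30 (SE 0.13, interval -0.58 to -0.01, adjusted p = 0.331), and after the correction for GC content and length -0.43 (adjusted p = 0.203). *Vwf*, the platelet-binding factor, had the lowest value, -0.35 (interval -0.72 to 0.03, adjusted p = 0.391), with 2.44, 2.15, 1.92 and 1.46 in GFP-BM REPOP and 2.48, 2.43 and 2.64 in WT CON cortex. With the correction it was -0.43 (interval -0.79 to -0.06, unadjusted p = 0.0245, adjusted p = 0.239 by limma). *Mfsd2a* was 5.10 ± 0.34 in GFP-BM REPOP and 5.13 ± 0.52 in GFP-BM CON against 5.85 ± 0.43 in WT CON, with unadjusted p-values from limma of 0.057 and 0.065. *Vcam1*, the leukocyte adhesion molecule, was 6.57 ± 0.42 in GFP-BM REPOP, 5.90 ± 0.64 in GFP-BM CON and 6.12 ± 0.37 in WT CON, and its interval for GFP-BM REPOP against GFP-BM CON was -0.02 to 0.34. Corrected, *Vcam1* in GFP-BM CON against WT CON went from -0.06 to -0.35 (interval -0.65 to -0.05, unadjusted p = 0.0269, adjusted p = 0.22 by limma).

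**Figure D2:**
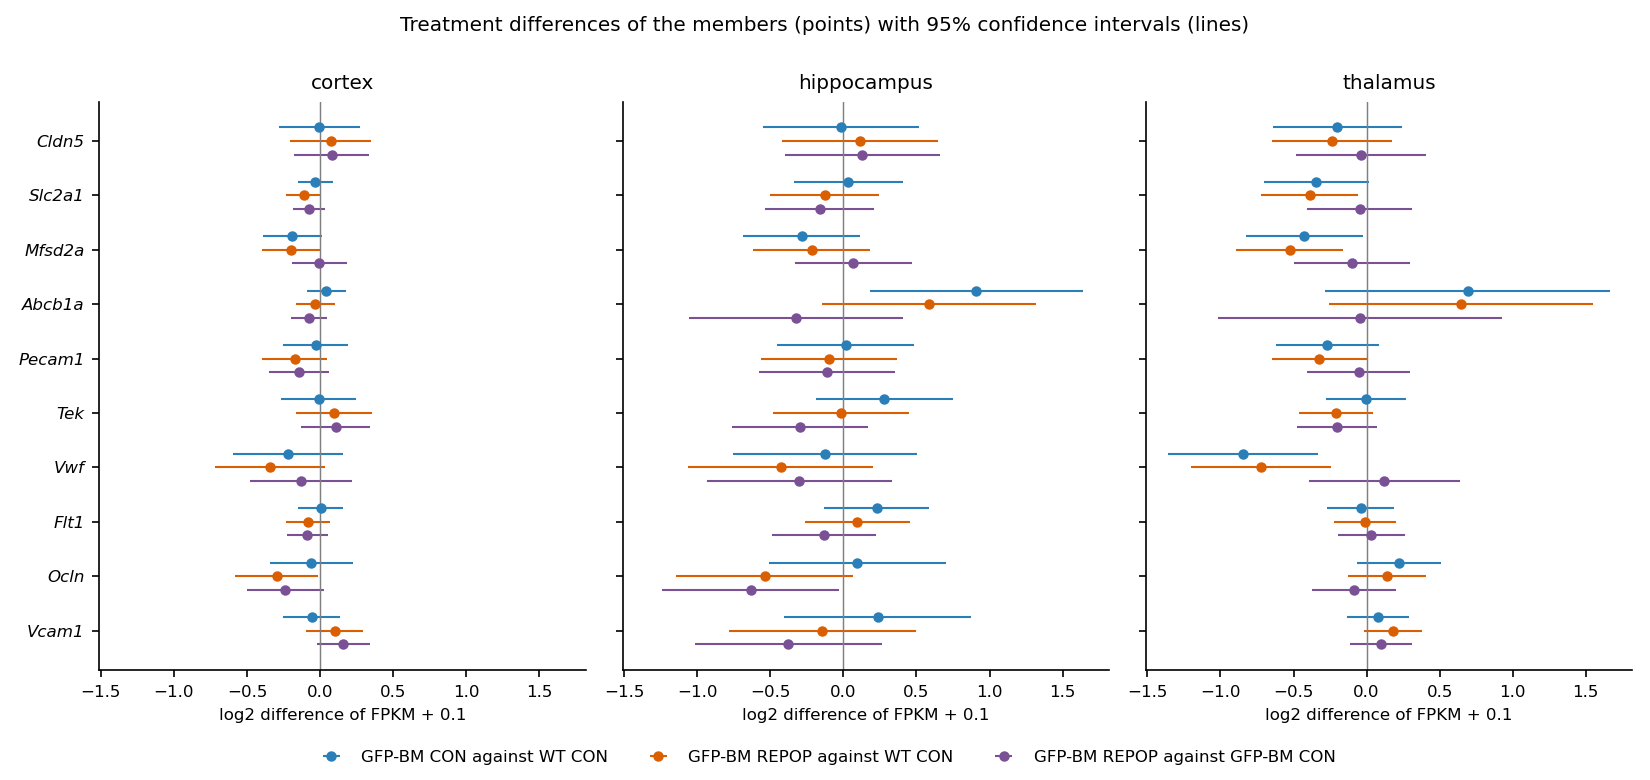
Difference in log2(FPKM + 0.1) of each member (horizontal axis) in the 3 treatment comparisons of each region; points are estimates, lines 95% confidence intervals. Intervals are narrower in the cortex than in the hippocampus for every member, Vwf lies below 0 in both comparisons with WT CON thalamus, and the intervals of Abcb1a outside the cortex are the widest.

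In the hippocampus the replicates were more scattered, with a median residual SD of 0.35 for the members and 0.29 for all genes, against 0.13 and 0.12 in the cortex. *Abcb1a*, the efflux pump, was 1.50, 4.57, 4.51 and 3.19 in WT CON, 5.40, 7.85, 7.53 and 4.15 in GFP-BM CON and 5.81, 4.38, 3.54 and 5.86 in GFP-BM REPOP hippocampus. The GFP-BM CON libraries were higher than WT CON except for the overlap of the lowest of them with the 2 highest WT CON libraries. The difference was 0.91 (SE 0.34, interval 0.18 to 1.64) and did not pass (adjusted p = 0.14). The GC measure of the libraries differed between the same groups, with means of 2.57 in WT CON and 1.38 in GFP-BM CON, and after the correction for GC content and length the difference was 0.56 (adjusted p = 0.197). Without the 3 libraries that went against their label it was 1.08 (adjusted p = 0.225), and without the 3 rich in choroid plexus genes 0.68 (adjusted p = 0.462). Striatal genes also differed between WT CON and GFP-BM CON hippocampus, as given above, and their part was not tested. Array quality weights gave 1.07 with an adjusted p of 0.0257, the 1 fit of those run in which it passed.

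*Ocln* and *Vcam1* moved with the choroid plexus genes in the hippocampus. *Ocln* was 5.94, 2.60, 3.66 and 4.91 in WT CON, 3.04, 3.85, 5.22 and 5.99 in GFP-BM CON and 2.65, 2.98, 3.52 and 2.16 in GFP-BM REPOP. *Vcam1* was 13.3, 7.55, 6.22 and 5.95 in WT CON, 5.23, 8.90, 11.4 and 13.5 in GFP-BM CON and 6.55, 6.90, 7.17 and 7.72 in GFP-BM REPOP. The 3 highest values of each gene were those of WT CON replicate 1 and GFP-BM CON replicates 3 and 4, the libraries whose choroid plexus genes summed to 5512 or more, while the sum in GFP-BM REPOP hippocampus was 140 to 389. Set against GFP-BM CON, GFP-BM REPOP hippocampus gave -0.63 for *Ocln* (SE 0.28, unadjusted p = 0.042, adjusted p = 0.422 by limma) and -0.38 for *Vcam1* (adjusted p = 0.601). Without those 3 libraries the values were -0.29 and 0.05 (unadjusted p from limma of 0.345 and 0.825). Without the 3 libraries that went against their label, they were -0.42 and -0.39.

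**Figure D3:**
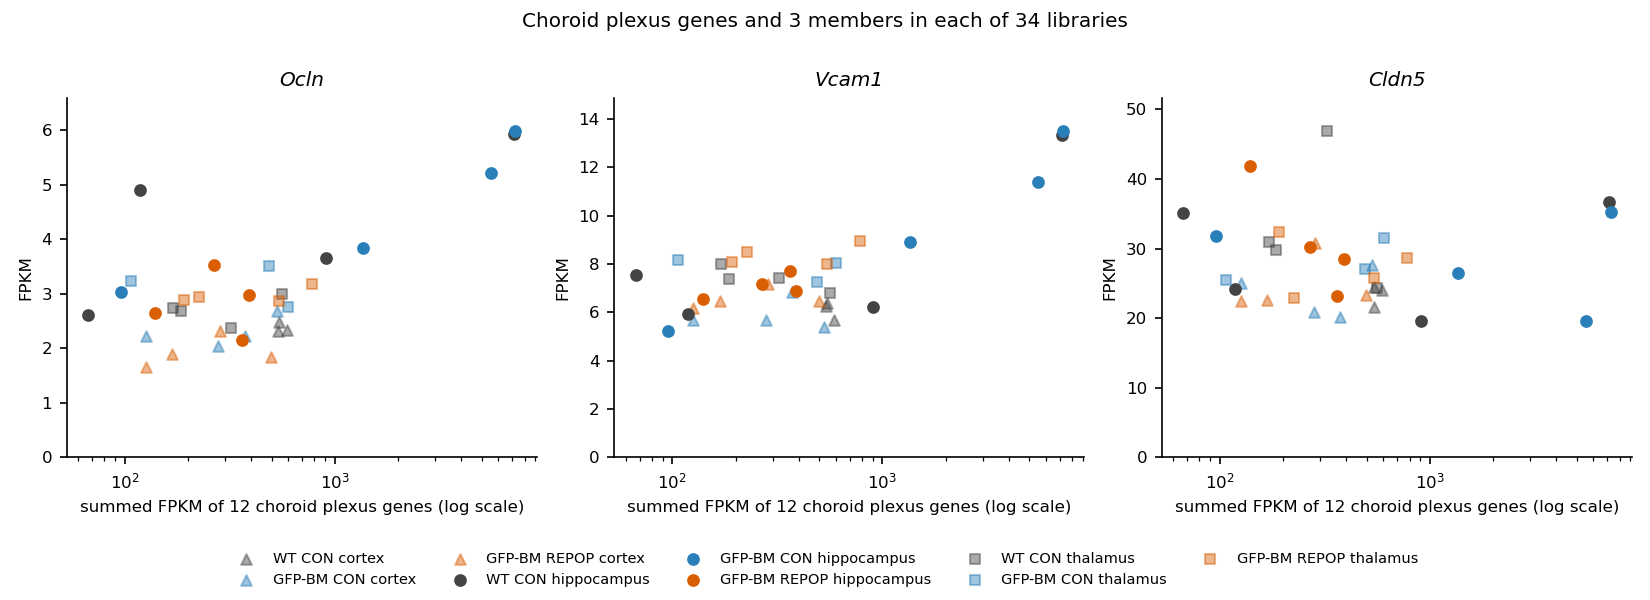
FPKM of Ocln, Vcam1 and Cldn5 (vertical axes) against the summed FPKM of 12 choroid plexus genes (horizontal axis, log scale) in 34 libraries; circles are hippocampus, triangles cortex and squares thalamus. The 3 hippocampal libraries above 5000 hold the 3 highest values of Ocln and Vcam1, while Cldn5 is 36.7, 19.6 and 35.2 in them.

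Across the 34 libraries, the deviations of *Vcam1* from its group means had a Pearson correlation of 0.76 with those of the choroid plexus list, and *Ocln* 0.64. Within the 12 hippocampal libraries the values were 0.89 and 0.72. Over the 22 libraries of the other regions, where the list summed to at most 781, they were -0.08 and 0.29. *Cldn5*, the other tight junction gene, had a correlation of -0.06. *Slc2a1* had 0.48, with 0.57 in the hippocampus and 0.35 in the other regions, and the other members -0.27 (*Abcb1a*) to 0.31 (*Vwf*). *Slc2a1* was 41.5, 29.5 and 45.4 in the hippocampal libraries rich in choroid plexus genes and 25.7 to 31.9 in the other hippocampal libraries. The part of choroid plexus tissue in the values of *Ocln*, *Vcam1* and *Slc2a1* was not tested beyond leaving those rich libraries out. The remaining members overlapped between all hippocampal groups. *Cldn5* was 19.6 to 36.7 in WT CON, 19.6 to 35.2 in GFP-BM CON and 23.2 to 41.8 in GFP-BM REPOP. *Tek* and *Flt1*, the angiopoietin and VEGF receptors, were 2.44 ± 0.53 and 8.08 ± 1.21 in WT CON, 2.94 ± 0.29 and 9.42 ± 0.72 in GFP-BM CON and 2.43 ± 0.63 and 8.72 ± 1.79 in GFP-BM REPOP hippocampus. In GFP-BM CON against WT CON, *Tek* went from 0.28 to 0.43 without the libraries rich in choroid plexus genes, *Flt1* from 0.23 to 0.27, *Cldn5* from -0.02 to 0.19 and *Vwf* from -0.13 to 0.35. Without the libraries that went against their label these were 0.33, 0.30, 0.09 and -0.18. None of these passed (adjusted p = 0.358 to 0.859).

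In the thalamus, *Vwf* had the largest difference of the members against WT CON. It was 4.34, 7.60, 3.88 and 4.19 in WT CON, 3.08, 2.58 and 2.30 in GFP-BM CON and 3.30, 2.59, 2.41 and 3.33 in GFP-BM REPOP thalamus. All 7 libraries of the transplanted groups lay below all 4 of WT CON. The difference was -0.84 (SE 0.23, interval -1.36 to -0.33, unadjusted p = 0.00418, adjusted p = 0.107 by limma) for GFP-BM CON and -0.72 (SE 0.22, interval -1.20 to -0.25, unadjusted p = 0.00673, adjusted p = 0.107) for GFP-BM REPOP against WT CON. Groups that did not overlap were common here, with 23.1% and 18.8% of all genes. After the correction for GC content and length the differences were -0.98 (adjusted p = 0.0761) and -0.89 (adjusted p = 0.0654). They grew although the deviations of *Vwf* from its group means had a correlation of 0.66 with those of the GC measure, which was higher in WT CON. GC content and length were corrected together, and their parts were not tested. In 1 fit of all 9 groups *Vwf* passed in both comparisons (adjusted p = 0.0379 and 0.044). Leaving out each library in turn gave -0.95 to -0.63 and -0.83 to -0.51, and none of these fits passed. Both comparisons rest on the same 4 WT CON libraries. From GFP-BM CON to GFP-BM REPOP, *Vwf* differed by 0.12 (interval -0.39 to 0.64).

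*Mfsd2a* was 7.38, 12.3, 7.72 and 8.59 in WT CON, 6.79, 5.46 and 7.53 in GFP-BM CON and 6.83, 5.62, 6.03 and 5.93 in GFP-BM REPOP thalamus. The GFP-BM REPOP libraries lay below all WT CON libraries, and those of GFP-BM CON overlapped with them in 1 library. The differences were -0.43 (SE 0.18, adjusted p = 0.227) and -0.53 (SE 0.17, adjusted p = 0.121), and after the correction -0.20 and -0.30 (adjusted p = 0.374 and 0.14). *Slc2a1* was 30.7, 53.4, 33.6 and 40.6 in WT CON, 31.0, 28.9 and 31.5 in GFP-BM CON and 31.2, 30.8, 26.7 and 29.4 in GFP-BM REPOP thalamus. Its differences of -0.34 and -0.39 (adjusted p = 0.252 and 0.167) were -0.12 and -0.18 with the correction. *Mfsd2a* and *Slc2a1* passed in GFP-BM REPOP against WT CON when WT CON replicate 1 was left out (adjusted p = 0.0487 and 0.047), and *Mfsd2a* in the fit of all 9 groups (adjusted p = 0.0263). The GC measure of WT CON replicate 2, which was the highest library for *Cldn5*, *Slc2a1*, *Mfsd2a*, *Pecam1* and *Vwf*, was 3.65, the highest of all 34.

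*Abcb1a* was 9.57, 1.80, 5.91 and 8.17 in WT CON, 8.33, 9.93 and 8.20 in GFP-BM CON and 8.92, 8.47, 8.13 and 8.52 in GFP-BM REPOP thalamus. The groups overlapped, and the lowest library, WT CON replicate 2, was the one with the highest GC measure. The differences from WT CON were 0.69 (interval -0.28 to 1.66, adjusted p = 0.327) and 0.65 (interval -0.26 to 1.55, adjusted p = 0.291), and 0.29 and 0.24 with the correction (adjusted p = 0.571 and 0.589).

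*Vcam1* and *Ocln* had values above 0 in the thalamus that turned with the correction. *Vcam1* was 7.39, 7.40, 8.01 and 6.80 in WT CON and 8.09, 8.01, 8.51 and 8.97 in GFP-BM REPOP thalamus, which did not overlap, with a difference of 0.18 (SE 0.09, interval -0.02 to 0.38, adjusted p = 0.219). After the correction for GC content and length the value was -0.69 (SE 0.28, interval -1.31 to -0.07, adjusted p = 0.167). Its sign thus depended on the processing, and its SE was larger with the correction. *Ocln* was 0.14 (interval -0.13 to 0.40) and became -0.53 (SE 0.21, interval -0.98 to -0.08, adjusted p = 0.154). The deviations of *Vcam1* and *Ocln* from their group means had correlations of only 0.28 and 0.18 with those of the GC measure. *Tek* was 3.48, 2.66, 3.14 and 3.17 in WT CON, 3.09, 3.02 and 3.14 in GFP-BM CON and 2.71, 2.87, 2.62 and 2.51 in GFP-BM REPOP thalamus. GFP-BM REPOP and GFP-BM CON did not overlap, as for 4.56% of all genes, but the difference of -0.20 (SE 0.12, unadjusted p = 0.136 by limma) did not pass before adjustment. Quantile normalization gave -0.53 for *Tek* in GFP-BM REPOP against WT CON, with an adjusted p of 0.0368, where the value as deposited was -0.21. *Tek*, once corrected, was -0.18 in GFP-BM CON and -0.38 in GFP-BM REPOP against WT CON (adjusted p = 0.327 and 0.0637). *Flt1* differed by -0.04 and -0.01 from WT CON, with intervals of -0.27 to 0.19 and -0.22 to 0.20. With the correction its values were -0.19 (interval -0.37 to -0.02, adjusted p = 0.204) and -0.18 (interval -0.34 to -0.01, adjusted p = 0.176).

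Whether a treatment effect differed between regions was tested as a difference of differences, with the 9 groups fitted at once and the animal as a random effect. Of the 10 members, 0 passed in each of the 9 tests by limma, also without the animal, where 0%, 0.0272%, 0.034% or 0.177% of all genes passed. At an unadjusted p under 0.05, *Ocln* was the only member in any of the 9, where 10.1%, 3.45%, 2.63%, 5.79%, 5.25%, 9.99%, 8.52%, 0.204% and 7.64% of all genes passed. Its value was -0.67 for GFP-BM REPOP against WT CON in the hippocampus minus the thalamus (SE 0.28, unadjusted p = 0.0229, adjusted p = 0.465 by limma), and its hippocampal values are those given above with the choroid plexus genes.

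The second comparison was between regions of WT CON mice, in the same fit of 34 libraries. Cortex against hippocampus called 2 of 10 members where 36.9% of all genes passed. *Abcb1a* was 7.77, 7.28 and 8.42 in the cortex and 1.50, 4.57, 4.51 and 3.19 in the hippocampus, a difference of 1.28 (SE 0.36, adjusted p = 0.00728) with no overlap. *Ocln* was 2.33, 2.33 and 2.48 in the cortex and 5.94, 2.60, 3.66 and 4.91 in the hippocampus, a difference of -0.76 (SE 0.21, adjusted p = 0.00728), also with no overlap, as for 42.6% of all genes. Both passed in 11 of 11 fits that left out 1 WT CON library. Without the libraries rich in choroid plexus genes they were 0.93 and -0.58 (adjusted p = 0.0435 and 0.0237, 26.8% of all genes called), and without those that went against their label 1.43 and -0.97 (adjusted p = 0.00657 and 0.000735, 35.6% called). Corrected for GC and length, *Abcb1a* was 0.77 (adjusted p = 0.0107) and *Ocln* -1.55, and *Vwf* (-0.72) and *Vcam1* (-1.36) also passed, where 36.7% of all genes did. The SE of *Vcam1* was 0.35 with the correction and 0.22 as deposited. The mean GC measure was 0.95 in WT CON cortex and 2.57 in WT CON hippocampus.

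Cortex against thalamus called 4 of 10, all lower in the cortex, where 30% of all genes passed and 13% were lower. *Vwf* was 2.48, 2.43 and 2.64 in the cortex and 4.34, 7.60, 3.88 and 4.19 in the thalamus, a difference of -0.92 (SE 0.26, adjusted p = 0.012). *Slc2a1* was 26.7 ± 1.13 (SD, n = 3) and 39.6 ± 10.1 (n = 4) (-0.53, adjusted p = 0.0138), *Mfsd2a* 5.85 ± 0.43 and 7.38 to 12.3 (-0.58, adjusted p = 0.0155) and *Pecam1* 5.96 ± 0.53 and 8.46 ± 1.99 (-0.48, adjusted p = 0.0469). In each of the 4, and in *Vcam1*, all cortex libraries lay below all thalamus libraries, and 36.2% of all genes had groups that did not overlap. When WT CON thalamus replicate 2 was left out, none of the 4 passed (adjusted p = 0.06 to 0.201), and in the same order the values were -0.71, -0.38, -0.42 and -0.33. *Mfsd2a* also lost its call without WT CON cortex replicate 2 (adjusted p = 0.0629). *Pecam1* passed in 6 of 11 such fits and was also lost without WT CON cortex replicate 1, 2 or 3 or thalamus replicate 4 (adjusted p = 0.0678, 0.154, 0.101 and 0.0533). With the correction, *Vwf* (-1.06, adjusted p = 0.00673) and *Slc2a1* (-0.34, adjusted p = 0.0153) passed, *Mfsd2a* and *Pecam1* did not (adjusted p = 0.0655 and 0.0722), and *Vcam1* did (-0.99, adjusted p = 0.0318), with 30% of all genes called. Here too the SE of *Vcam1* was 0.35 with the correction and 0.22 as deposited.

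Hippocampus against thalamus called *Ocln* alone, higher in the hippocampus by 0.59 (SE 0.20, adjusted p = 0.0396), where 17.7% of all genes passed. Its call was lost without the libraries rich in choroid plexus genes (0.41, adjusted p = 0.102) and kept without those that went against their label (0.80, adjusted p = 0.00246). The first of these settings called *Slc2a1* (-0.40), *Pecam1* (-0.53), *Tek* (-0.48) and *Vwf* (-0.75) instead, all lower in the hippocampus, with 18.6% of all genes called. The second called *Flt1* (-0.38) beside *Ocln*, with 19.8%. The correction called *Slc2a1* (-0.37), *Abcb1a* (-0.60), *Pecam1* (-0.41) and *Ocln* (0.81), with 25.4%. Leaving out single WT CON libraries lost the *Ocln* call in 6 of 11 fits. In the 3 comparisons between regions, the spread comes from all 34 libraries. When only the 11 WT CON libraries were fitted, none of the 7 calls passed (adjusted p = 0.069 to 0.228), nor did they with the animal as a fixed block among them (0.119 to 0.323).

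**Figure D4:**
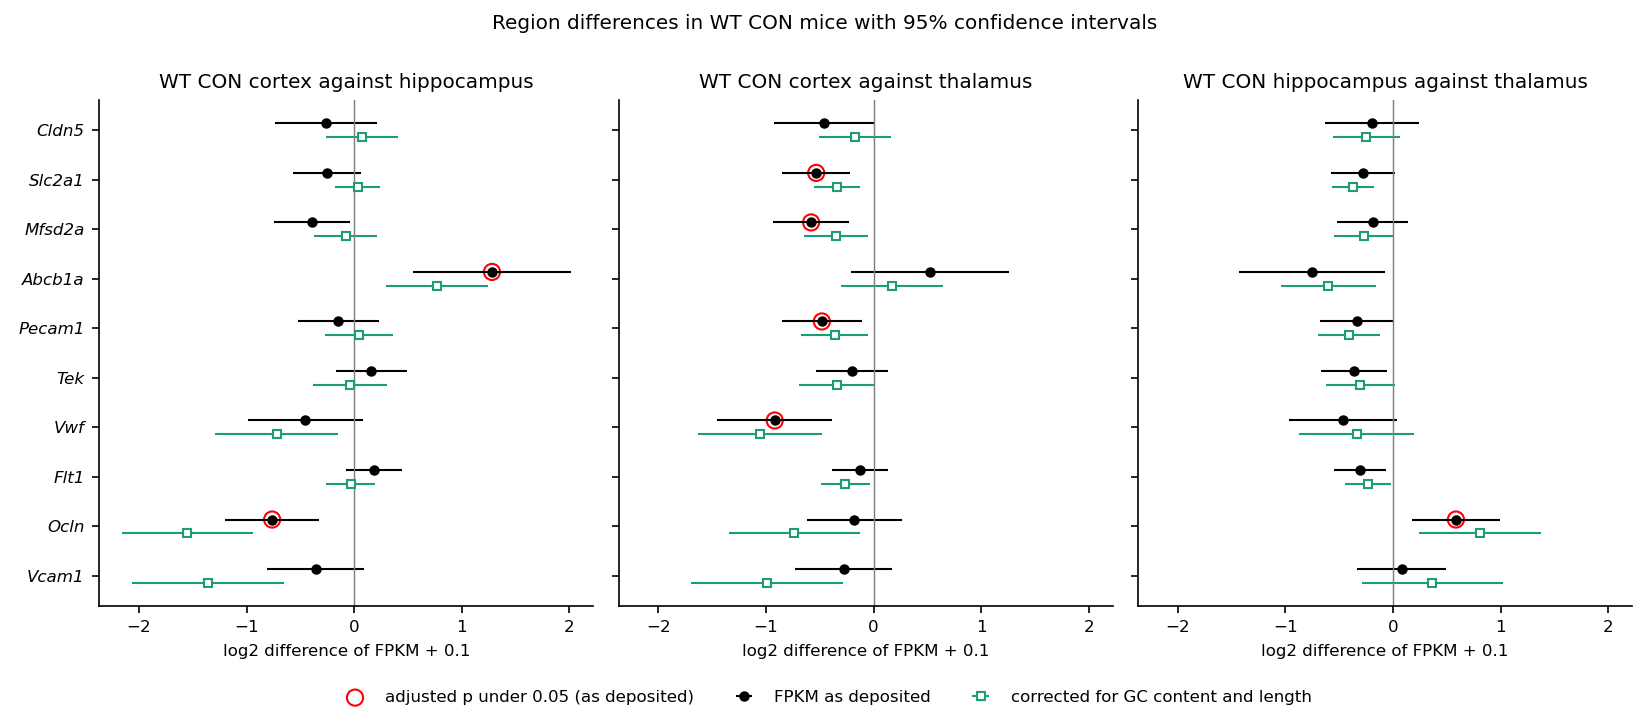
Difference in log2(FPKM + 0.1) of each member between WT CON regions (horizontal axis), with 95% confidence intervals; black circles are from the values as deposited, green squares after the correction for GC content and length, red rings mark an adjusted p under 0.05 as deposited. Abcb1a lies above 0 and Ocln below 0 for cortex against hippocampus in both, and Vcam1 moves from -0.36 to -1.36 with the correction.

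The members did not move as 1 block from library to library. After the mean of each group was removed, the 45 pairs had a median Pearson correlation of 0.27 over 34 libraries, from -0.75 for *Slc2a1* and *Abcb1a* to 0.76 for *Pecam1* and *Vwf*, and 34 pairs were positive. *Tek* and *Flt1*, the receptors, had 0.70, *Slc2a1* and *Pecam1* 0.67, and *Cldn5* and *Pecam1* 0.66. After *Slc2a1*, *Abcb1a* had its lowest values with *Pecam1* (-0.64), *Vwf* (-0.61) and *Cldn5* (-0.55). Libraries share depth, dissection and base composition in these correlations. With the GC measure, *Abcb1a* had -0.87, *Cldn5* 0.78, *Slc2a1* 0.78, *Pecam1* 0.68, *Vwf* 0.66 and *Mfsd2a* 0.54. *Vcam1* (0.28), *Ocln* (0.18), *Tek* (0.16) and *Flt1* (0.02) were closer to 0. *Vcam1* and *Ocln* were the members poorest in GC, and *Abcb1a* came next. With a list of 10 neuronal genes, whose own correlation with the GC measure was -0.88, *Abcb1a* had 0.87 and *Slc2a1* -0.83. The part of base composition or of tissue make-up in these values was not tested.

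**Figure D5:**
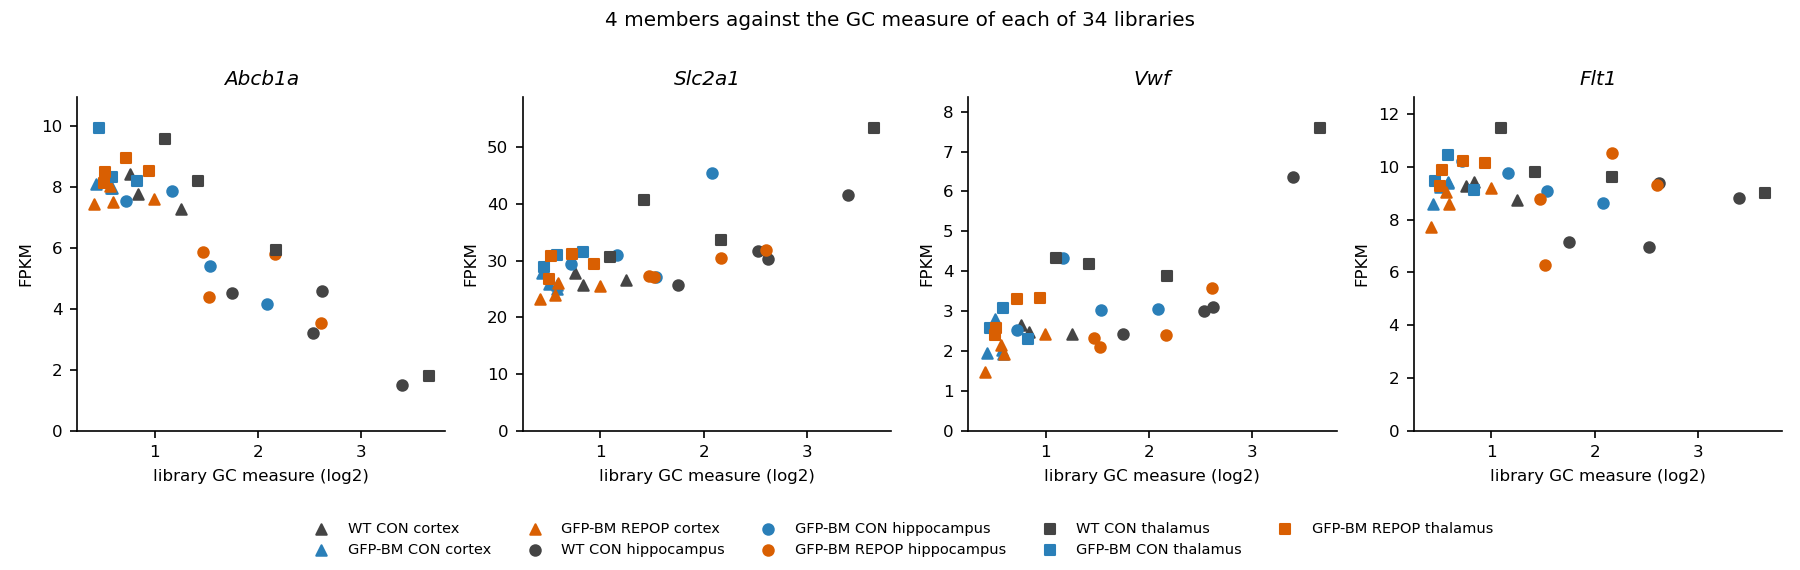
FPKM of Abcb1a, Slc2a1, Vwf and Flt1 (vertical axes, from 0) against the GC measure of the library (horizontal axis, log2) in 34 libraries; colours are treatments and shapes regions. Abcb1a falls to 1.50 and 1.80 in the 2 libraries with the highest GC measure, Slc2a1 and Vwf are highest in the library at 3.65, and Flt1 stays between 6.27 and 11.5.

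With a list of 30 tested genes of endothelial identity, *Tek* and *Pecam1* both had a correlation of 0.77, *Cldn5* 0.69, *Vwf* 0.65, *Flt1* 0.60 and *Slc2a1* 0.59. *Mfsd2a* (0.48), *Vcam1* (0.42) and *Ocln* (0.34) were lower and *Abcb1a* was negative (-0.31). With pericytes and smooth muscle, *Pecam1* had 0.76 and *Vwf* 0.73. The genes most like the mean of the 10 members were *Kdr* (0.92), *Lamb2* (0.91), *Hspg2* (0.90), *Cdh5* (0.89) and *Flii* (0.88). *Kdr* encodes the main VEGF receptor of endothelium, *Cdh5* its cadherin, and *Lamb2* and *Hspg2* components of basement membranes. By member, the gene most alike was *Vtn* for *Cldn5* (0.86), *Mmrn2* for *Pecam1* (0.87), *Adcy4* for *Vwf* (0.86) and *Cd93* for *Flt1* (0.85). It was *Tmco3* for *Slc2a1* (0.93), *Gpr162* for *Mfsd2a* (0.83), *Scyl2* for *Abcb1a* (0.97), *Ppox* for *Tek* (0.76), *Epn3* for *Ocln* (0.83) and *Large2* for *Vcam1* (0.91).

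Other genes linked to the vessel wall were read from 8 lists: junction partners (14 tested), barrier transporters and receptors (22), endothelial identity (30), VEGF and angiopoietin signalling (12), Wnt barrier signalling (16), endothelial activation and caveolae (14), pericytes and smooth muscle (15) and perivascular and meningeal fibroblasts (11). Not all of these are confined to vessels, and in RNA from whole tissue their differences need not be those of vessels. In the 9 treatment comparisons, 1 of the listed genes passed, where 0% to 0.836% of all genes did. *Slc7a5*, a transporter of large neutral amino acids and thyroid hormone across the barrier, was 16.6 ± 0.67 (SD, n = 4) in GFP-BM REPOP cortex and 21.0 ± 0.63 (n = 3) in WT CON (-0.34, SE 0.06, adjusted p = 0.0211). In that comparison 0.734% of all genes passed, and the value is not corrected for GC content and length. The median of the endothelial identity list was -0.05 in that comparison and that of the barrier transporters -0.06, against 0.02 for all genes. At an unadjusted p under 0.05, pericyte and smooth muscle genes numbered 0 higher and 6 lower of 15 in GFP-BM REPOP against WT CON thalamus, where 15% of all genes were higher and 9.96% lower, and their median was -0.33. Endothelial identity genes there numbered 1 higher and 6 lower of 30, with a median of -0.18 against -0.05 for all genes. None of these passed the adjustment (smallest adjusted p = 0.0511 and 0.0644). The counts are not corrected for GC content and length, and the GC measure was higher in all WT CON thalamus libraries. Deviations of the pericyte and endothelial lists had correlations of 0.46 and 0.50 with those of that measure. The pericyte sum was 179.3 in WT CON thalamus replicate 2, 105.5 to 122.8 in the others of WT CON and 89.4 to 115.7 in GFP-BM REPOP. The part of base composition was not tested.

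Between WT CON regions the lists were more mixed. Their values are as deposited and include WT CON hippocampus replicate 1, rich in choroid plexus genes, and replicate 2, which went against its label. They also include WT CON thalamus replicate 2, which had the highest GC measure of all libraries (3.65). Striatal genes were high in WT CON hippocampus replicates 1, 2 and 3, as given above. The mean GC measure was 0.95 in WT CON cortex, 2.57 in hippocampus and 2.08 in thalamus. Whether these calls hold with the correction, without those libraries or with WT CON libraries alone is not given here. In cortex against hippocampus, 21.2% of all genes were higher and 15.7% lower in the cortex. *Tjp1*, which anchors tight junctions, was 14.3 against 3.56 (2.19, adjusted p = 0.00107), and *F11r*, a junction adhesion molecule, 2.10 against 4.54 (-0.97, adjusted p = 0.0101). In all, 3 of 14 junction partners passed, below the 36.9% of all genes that did. All 4 of 22 barrier transporters that passed were higher in the cortex, with *Slc39a10*, a zinc transporter, at 61.5 against 17.7 and *Tfrc*, the transferrin receptor, at 23.5 against 11.1. That count is near the share of all genes that were higher. Of 16 Wnt genes, 2 were higher and 7 lower in the cortex, among the latter *Apcdd1* (6.14 against 13.4), an inhibitor of Wnt signalling, and the ligand *Wnt7a* (3.16 against 6.72). In cortex against thalamus, 8 of 15 pericyte and smooth muscle genes passed and all were lower in the cortex, where 13% of all genes were. They included *Notch3* (3.00 against 5.23), a receptor of mural cells, and the contractile genes *Acta2* (4.68 against 12.2) and *Myh11* (1.13 against 2.52). Of 30 endothelial identity genes, 1 was higher (*Cd34*, 32.7 against 9.72) and 6 lower. *Lef1*, a transcription factor of Wnt signalling, was 2.34 in the cortex and 8.75 in the thalamus (-1.81). The pericyte and smooth muscle genes summed to 83.2 to 89.3 in WT CON cortex. In WT CON thalamus they summed to 179.3 in replicate 2 and to 105.5 to 122.8 in the others. The deviations of this list from its group means had a correlation of 0.46 with those of the GC measure. The part of these genes in the region differences of *Vwf* and *Pecam1* was not tested.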

How the data were processed

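The authors sequenced paired reads (Illumina NovaSeq and HiSeq), aligned them with STAR and counted genes with featureCounts, per the labels on mm10, and deposited 1 table of FPKM values normalized by gene length and library size with edgeR and limma. Which library was read on which instrument is not given in the sources used here. Every deposited value was a whole multiple of 1 read (100% within 0.001), so reads per library were recovered. Genes reaching an FPKM of 1 in at least 3 libraries were kept (15053 of 16389), 343 of other biotypes were left out and 14710 were tested as log2(FPKM + 0.1) with limma 3.58.1 (trend, two-sided) in R 4.3.3. Python 3.11.15 with numpy 2.4.6, pandas 2.3.3 and matplotlib 3.10.9 did the rest. Comparisons between regions used all 9 groups and the animal as a random effect (estimated correlation -0.04), which the fits without a library kept. The GC and length correction used splines of 5 degrees of freedom on 13875 genes.

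Members and lists were chosen with earlier results of these data known. Named genes were the 10 members, listed genes with an adjusted p under 0.05 (at most 4 per list and comparison), and the genes most alike. Nothing in the labels says that libraries of a group were independently extracted beyond coming from different animals. The fit was tested on simulated data for GFP-BM REPOP against WT CON: at a log2 change of 1 over 14710 genes it recovered 89% (cortex), 60% (hippocampus) and 66% (thalamus). The simulated noise was independent between genes, with the same SD in all groups. Spread shared through the GC measure, or wider in WT CON, was not simulated, so these shares need not hold for the members. The replicate numbers did not pair libraries of different treatment groups (the correlation of deviations was over 0.1 in 3 of 10, 1 of 12 and 1 of 10 same-number pairs).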

Additional observations from a re-analysis of the deposited data

Results flagged for a closer look

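Of 70 groups of 4 libraries examined, 5 had 1 library farther from the others than Dixon's test allows at 95%, and chance flags about 1 group in 20. *Cldn5* was 30.7 in GFP-BM REPOP cortex replicate 1, where the others were 22.4 to 23.3. *Mfsd2a* was 9.27 in GFP-BM REPOP hippocampus replicate 1, a library that went against its label, where the others were 5.60 to 6.12. *Vwf* was 6.37 in WT CON hippocampus replicate 1, rich in choroid plexus genes, where the others were 2.42 to 3.09. *Vwf* was 7.60 in WT CON thalamus replicate 2, with the highest GC measure, where the others were 3.88 to 4.34. *Vwf* was also 2.79 in GFP-BM CON cortex replicate 1, where the others were 1.93 to 2.02. All values are FPKM.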

How the results depend on the processing

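Of the 9 treatment comparisons, in which no member passed, quantile normalization gave 1 member in GFP-BM REPOP against WT CON thalamus (*Tek*), the fit of all 9 groups gave 1 in GFP-BM CON and 2 in GFP-BM REPOP against WT CON thalamus, and array quality weights gave 1 in GFP-BM CON against WT CON hippocampus. Leaving out each library in turn gave 0 to 2 in GFP-BM REPOP against WT CON thalamus and 0 in the other 8. The replicate number as a block, alone or with the GC and length correction, gave 0 in all 9, and the fit without the animal block changed no region call. Between WT CON regions, quantile normalization gave 5 and the GC and length correction 4 in cortex against hippocampus, where voom on the recovered reads also called *Mfsd2a* (adjusted p = 0.0231). In hippocampus against thalamus, median-ratio scaling gave 2 and that correction 4, and 3 subsets chosen with the data in view gave 3 (WT CON replicate 1 of both regions out, which also called *Abcb1a* in cortex against thalamus, 0.79, adjusted p = 0.0439), 4 (libraries rich in choroid plexus genes out) and 2 (those low in hippocampal genes out). WT CON libraries alone, also with the animal as a fixed replicate block, gave 0 in all 3. These fits took the spread from WT CON alone. Whether the calls were lost to fewer libraries or to a wider spread in WT CON was not tested. Leaving out each WT CON library gave 2 to 3 in cortex against hippocampus, 0 to 4 in cortex against thalamus and 0 to 4 in hippocampus against thalamus. In cortex against thalamus the low was without thalamus replicate 2, and without cortex replicate 2 it was 2. In hippocampus against thalamus, 0 passed without hippocampus replicate 4 or thalamus replicate 1, 3 or 4, and 2, 3 and 4 without hippocampus replicate 2, thalamus replicate 2 and hippocampus replicate 1. For quantile normalization, the fit of all 9 groups, array quality weights, voom, median-ratio scaling and the fits without 1 library, the share of all genes that passed is not given. Nor is it given for the subset without WT CON replicate 1 of both regions. The members counted in these settings cannot be weighed against that share. Where no construction shows it, the cause was not tested. Treatment values that changed sign in an alternative were at most 0.38 in size and none had passed.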
